A study of Mus musculus with 8 samples.

Results

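The genes described here are the 38 mouse genes of glycolysis and of the handling of its end products pyruvate and lactate. They were chosen by symbol from a list of the sugar transporters, enzymes and regulatory kinases of the pathway. All 38 were found among the 52143 rows of the deposited expression values, on 39 rows, and Aldoa, which had 2 rows, was taken from the row with the higher mean. The values are log2(TPM + 1), where TPM (a transcript number scaled to a fixed library total) is a gene's share of a library after correction for length, so levels of different genes can be compared in TPM.

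Glycolysis splits glucose into a pair of pyruvate molecules in the cytosol and yields ATP without oxygen. Most steps are served by several isozymes encoded by separate genes and used in different tissues. Pyruvate is either reduced to lactate, which leaves the cell through monocarboxylate transporters, or oxidized in mitochondria by the pyruvate dehydrogenase complex. Colonocytes are known to oxidize butyrate as a main fuel and also to use glucose. Gapdh, the enzyme in the middle of the pathway, is widely used as a reference gene.

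RNA was sequenced from the distal colon of female mice, 4 Control and 4 SiglecXII samples. Control mice carried Villin1-Cre-ERT alone. SiglecXII mice (SIGLEC12-Villin1-Cre-ERT) carried in addition 1 allele of human SIGLEC12, inserted at ROSA26 behind a floxed stop cassette. The Villin1 promoter directs Cre-ERT to the intestinal epithelium, whereas RNA was taken from colon tissue and not from isolated epithelium. Both groups, controls included, were 8 weeks old when tamoxifen (10 mg/ml) was first injected, received it on 5 consecutive days and were killed 7 days after the last dose, 12 days after the first. The labels list 4 samples in each group, while the design text speaks of 3 mice per condition and the methods describe 3 technical libraries per sample. No label ties a sample to a mouse, and p-values therefore measure the spread between these samples, part of which may be technical.

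The 9 epithelial markers examined (Epcam, Krt8, Vil1 and others) were present in every sample, with a summed level of 8297 to 11678 TPM in Control and 9016 to 11783 TPM in SiglecXII samples. Markers of other cell types were present as well. The 8 smooth muscle markers summed to 631 to 1016 TPM in Control and 307 to 658 TPM in SiglecXII samples, and the 8 skeletal muscle markers to 22.0 to 55.4 TPM and 44.9 to 138 TPM. The 6 markers of macrophages and neutrophils summed to 39.0 to 151 TPM in Control and 16.7 to 30.4 TPM in SiglecXII samples. At unadjusted p, 4 of 8 tested smooth muscle markers, 1 of 3 tested neuronal markers (Snap25) and 2 of 4 tested markers of macrophages and neutrophils (S100a8 and S100a9) were lower in SiglecXII samples, beside 7.67% of all tested genes, and the part of these cells in the values of the 38 genes was not tested. In tissue RNA, fewer cells of a type and less RNA per cell cannot be told apart. The median gene lay between -0.04 and 0.15 log2 units from the mean of all 8 samples in Control samples and in SiglecXII 1 and 2, but at -0.16 and -0.30 in SiglecXII 3 and 4. The log2 difference of the median tested gene (SiglecXII minus Control) was -0.15, and differences of single genes are to be read beside it.

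In Control colon, Aldoa, Gapdh and Ldha were the most abundant of the 38 genes, and in 6 families a single gene held more than 90% of the transcripts of the family's listed members. In SiglecXII samples Gapdh was lower than in every Control sample, while no other of the 38 genes separated the groups. The lower Gapdh value was accompanied by higher values of a pair of processed pseudogenes with nearly the same sequence, and the sum of Gapdh and all of its copies did not separate the groups.

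**Figure D1:**
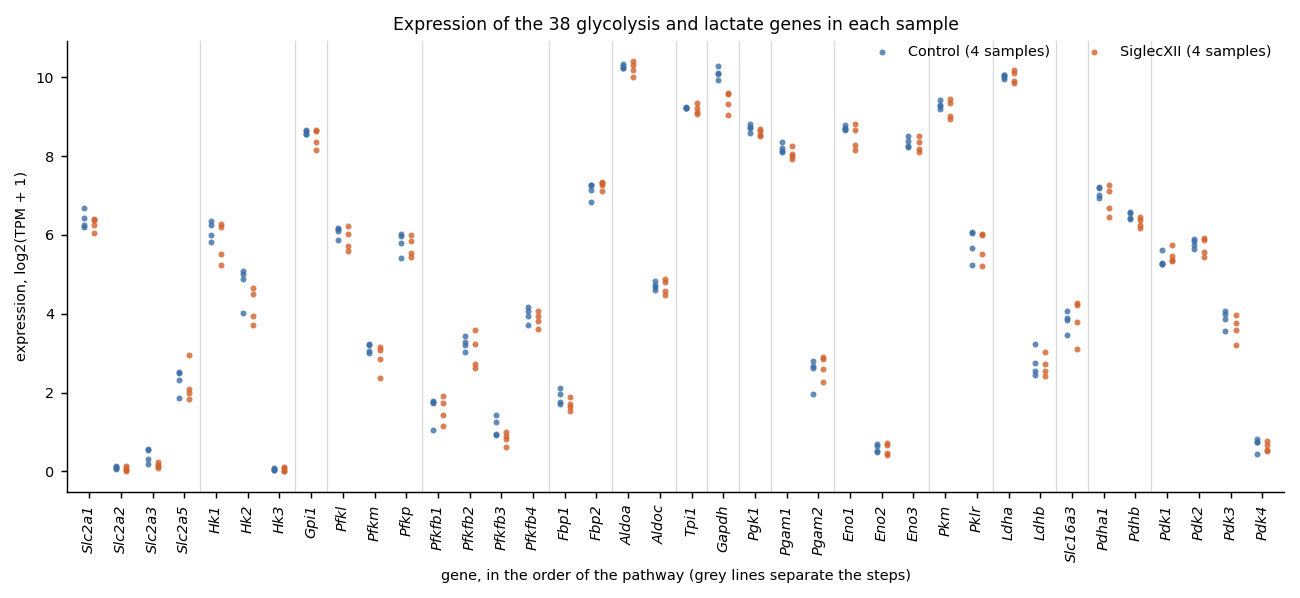
Expression of the 38 genes in log2(TPM + 1), in the order of the pathway, with 1 point per sample (blue, 4 Control samples; orange, 4 SiglecXII samples). Gapdh is the one gene whose SiglecXII points all lie below its Control points among the 32 tested genes; Hk3 and Slc2a2 are near 0 in all samples.

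The order of the levels in Control samples was led by Aldoa with 1239 ± 39.5 TPM (SD, n = 4), Gapdh with 1102 ± 113 TPM and Ldha with 1039 ± 35.8 TPM. Gapdh overlapped both neighbours, whereas all 4 values of Aldoa were above those of Ldha, and all 4 values of Ldha were above those of the next gene, Pkm (632 ± 42.3 TPM). Tpi1 followed with 596 ± 7.53 TPM, overlapping Pkm. Below a gap came Pgk1 (420 ± 26.2 TPM), Eno1 (418 ± 18.2 TPM) and Gpi1 (389 ± 14.9 TPM), which overlapped each other in this order, and then Eno3 and Pgam1. In all, 12 of the 38 genes had a Control mean of at least 100 TPM and 25 of at least 10 TPM. At the other end, Slc2a3, Slc2a2, Hk3, Eno2 and Pdk4 had Control means below 1 TPM. Together the 38 genes held 0.737% ± 0.024 of the total TPM in Control samples and 0.661% ± 0.076 in SiglecXII samples (SD, n = 4 each).

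Sugar enters the pathway through transporters of the Slc2a family. Slc2a1, the widespread glucose transporter GLUT1, was measured at 74.9, 85.8, 72.7 and 101 TPM in Control 1 to 4 and at 82.4, 83.7, 65.6 and 75.2 TPM in SiglecXII 1 to 4. These ranges overlapped, and the log2 difference was -0.12 (SE 0.129, adjusted p = 0.668 from limma, adjusted here and below over all 13164 tested genes). Slc2a1 made up 95.0% ± 1.33 of the TPM of the 4 transporter genes among the 38 in Control samples; further Slc2a genes outside the 38, such as Slc2a8 with 8.05 to 11.7 TPM in these samples, were not counted in this share. Slc2a5, the fructose transporter, held 4.57% ± 1.10. Slc2a3, a high-affinity glucose transporter of neurons and leukocytes, held 0.380% ± 0.206, and Slc2a2, the transporter of liver and pancreatic islets, held 0.078% ± 0.033.

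Hexokinases trap glucose as glucose 6-phosphate. Hk1, the housekeeping form, held 72.2% ± 5.43 of the TPM of its family in Control samples, and Hk2, the inducible form, held 27.8% ± 5.42. Hk3 was at most 0.077 TPM in any sample. Hk2 had the most negative log2 difference of the 31 tested members other than Gapdh. It was measured at 15.1, 31.1, 28.4 and 32.9 TPM in Control samples and at 21.5, 24.1, 12.2 and 14.4 TPM in SiglecXII samples. Control 1 lay among the SiglecXII samples, so the groups overlapped, and the difference of -0.54 (SE 0.283, adjusted p = 0.515) was within the spread between replicates. Hk1 was 55.5 to 80.7 TPM in Control samples and 77.1, 72.4, 44.9 and 36.7 TPM in SiglecXII 1 to 4. SiglecXII 3 and 4 were thus lower than all Control samples while SiglecXII 1 and 2 lay within their range, and the log2 difference was -0.30 (SE 0.242, adjusted p = 0.582).

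Gpi1, which converts glucose 6-phosphate to fructose 6-phosphate, has no isozyme and was 375 to 404 TPM in Control samples. SiglecXII 1 and 2 had 401 and 395 TPM, and SiglecXII 3 and 4 had 324 and 285 TPM. The log2 difference was -0.16 (SE 0.118, adjusted p = 0.555).

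Phosphofructokinase, which commits the sugar to glycolysis, was divided between the liver form Pfkl (51.6% ± 2.03 in Control samples) and the platelet form Pfkp (42.4% ± 2.58), with the muscle form Pfkm at 5.98% ± 0.607. In SiglecXII samples these shares were 50.4% ± 0.516, 44.1% ± 0.661 and 5.44% ± 0.696. Pfkl itself was 57.9 to 71.6 TPM in Control and 47.2 to 74.3 TPM in SiglecXII samples, a log2 difference of -0.19 (SE 0.149, adjusted p = 0.572). The bifunctional Pfkfb enzymes, which set the level of the activator fructose 2,6-bisphosphate, were led by Pfkfb4 (55.7% ± 6.83 of the family in Control samples) and Pfkfb2 (31.9% ± 4.78). Pfkfb1 held 7.74% ± 2.45. Pfkfb3, the form often induced in proliferating cells, held 4.59% ± 1.30. Pfkfb4 was 12.2 to 16.9 TPM in Control and 11.1 to 15.7 TPM in SiglecXII samples (log2 difference -0.12, SE 0.143, adjusted p = 0.678).

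Fructose-1,6-bisphosphatase runs this step in the opposite direction. In the colon it was almost wholly Fbp2, known as the muscle form, with 98.1% ± 0.259 of the TPM in Control samples, whereas Fbp1, the form of liver and kidney, held 1.92% ± 0.259. Fbp2 was measured at 112, 153, 153 and 140 TPM in Control samples and at 157, 161, 152 and 136 TPM in SiglecXII samples. The ranges overlapped, with the lowest value in Control 1 and the highest in SiglecXII 2, and the log2 difference was 0.13 (SE 0.116, adjusted p = 0.605).

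Aldolase splits the sugar into triose phosphates. Of the summed TPM of Aldoa and Aldoc, Aldoa held 98.0% ± 0.154 and Aldoc 1.99% ± 0.154 in Control samples. Aldoa had 1210, 1252, 1289 and 1204 TPM in Control samples. SiglecXII 1 lay within this range with 1264 TPM, SiglecXII 2 above it with 1356 TPM, and SiglecXII 3 and 4 below it with 1157 and 1028 TPM. Its log2 difference was -0.051 (SE 0.098, adjusted p = 0.802). Tpi1, triosephosphate isomerase, had the smallest SD of the members with over 100 TPM in Control samples, with 606, 590.0, 590.0 and 597 TPM in Control samples and 597, 649, 555 and 532 TPM in SiglecXII samples, which lay on both sides of the Control values (log2 difference -0.034, SE 0.083, adjusted p = 0.847).

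**Figure D2:**
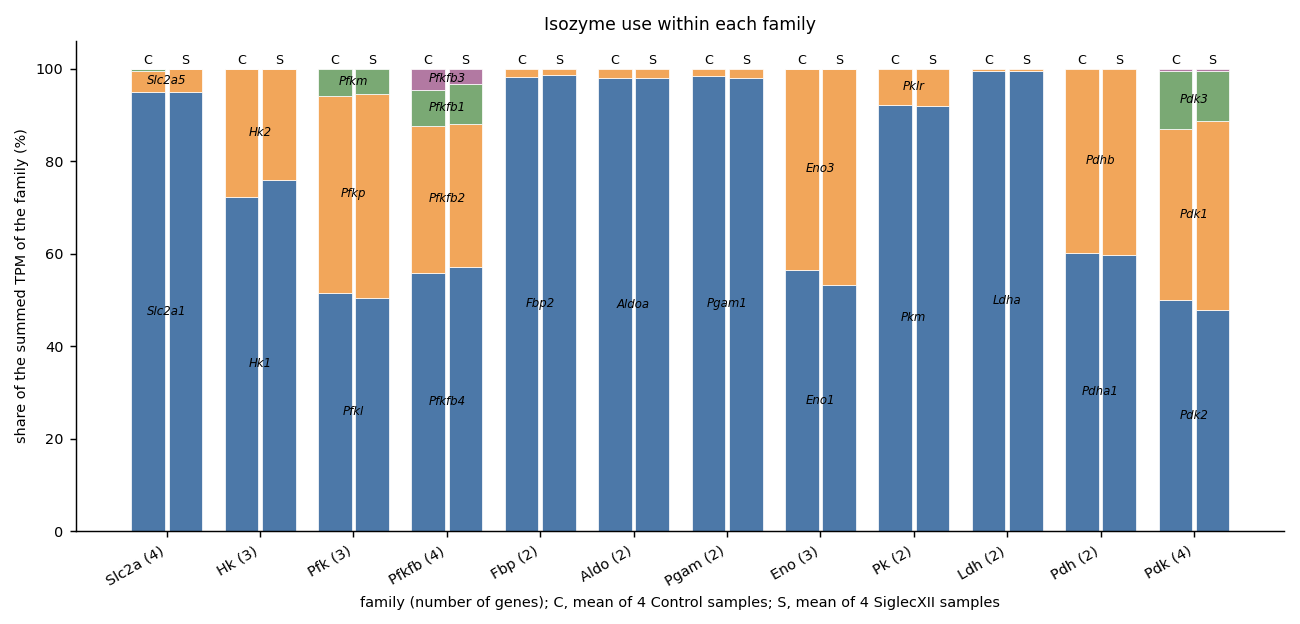
Share of each gene in the summed TPM of its family (percent, axis from 0), as the mean of 4 Control samples (C) and of 4 SiglecXII samples (S). Slc2a1, Fbp2, Aldoa, Pgam1, Pkm and Ldha each fill more than 90% of their bar in both groups, whereas Eno1 and Eno3, Pfkl and Pfkp, and Pdk2 and Pdk1 divide theirs.

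Below Gapdh and Pgk1, phosphoglycerate mutase was 98.3% ± 0.529 Pgam1, the non-muscle form, and 1.66% ± 0.529 Pgam2, the muscle form, in Control samples. Pgam1 was 325, 280.0, 273 and 292 TPM in Control samples and 265, 304, 241 and 253 TPM in SiglecXII samples. The groups overlapped through SiglecXII 2, and the log2 difference was -0.14 (SE 0.098, adjusted p = 0.544). Pgam2 had the most positive difference of all tested members at 0.14 (SE 0.217, adjusted p = 0.761). It was 2.93 TPM in Control 1 and 5.13 to 5.93 TPM in the other Control samples, against 5.03, 6.23, 6.41 and 3.83 TPM in SiglecXII samples.

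Enolase was the one step of lower glycolysis at which a pair of isozymes shared the load. Eno1, the ubiquitous alpha form, held 56.4% ± 2.39 and Eno3, the beta form known from muscle, held 43.5% ± 2.40 of the TPM of the family in Control samples. Eno2, the form of neurons, held 0.069% ± 0.018. Eno3 was 305, 361, 330 and 297 TPM in Control samples and 274, 361, 290.3 and 326 TPM in SiglecXII samples, with overlapping ranges. Eno1 was 402, 408, 443 and 421 TPM in Control samples. SiglecXII 1 and 2 had 406 and 449 TPM and SiglecXII 3 and 4 had 310 and 282 TPM, so that Eno3 was above Eno1 in SiglecXII 4 alone. The log2 difference of Eno1 was -0.23 (SE 0.146, adjusted p = 0.522). Of the skeletal muscle markers, Acta1 and Ckm reached at most 24.1 and 12.1 TPM in Control samples and 51.4 and 25.9 TPM in SiglecXII samples. Myh4 was at 0 in at least 1 sample of each group and reached 0.53 TPM in Control and 2.83 TPM in SiglecXII samples. All 4 tested skeletal muscle markers (Ckm, Acta1, Mylpf and Tnnt3) were higher in SiglecXII samples at unadjusted p, with log2 differences of 0.72 to 1.37 and adjusted p = 0.515, beside 1.19% of all tested genes. Their part in the values of Eno3, Pgam2, Pfkm and Fbp2 was not tested.

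The last step of glycolysis, pyruvate kinase, was 92.1% ± 1.64 Pkm and 7.87% ± 1.64 Pklr, the form of liver and erythrocytes, in Control samples. Splice forms of Pkm are not separated in gene-level values. Pkm was 589 to 690.0 TPM in Control samples, 649 and 697 TPM in SiglecXII 1 and 2 and 487 and 514 TPM in SiglecXII 3 and 4 (log2 difference -0.12, SE 0.127, adjusted p = 0.647).

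Lactate dehydrogenase, which interconverts pyruvate and lactate, was 99.4% ± 0.164 Ldha in Control samples, the subunit A gene, and 0.562% ± 0.164 Ldhb, the subunit B gene prominent in heart. Ldha was measured at 1065, 990.0, 1034 and 1066 TPM in Control samples and at 951, 1163, 916 and 1094 TPM in SiglecXII samples. The SiglecXII values lay on both sides of the Control values, and the log2 difference of -0.017 (SE 0.095, adjusted p = 0.937) was the smallest in size of the 32. Slc16a3 (MCT4), an exporter of lactate, was low with 10.0, 13.9, 13.4 and 15.7 TPM in Control samples and 7.65, 18.2, 12.9 and 17.8 TPM in SiglecXII samples (log2 difference 0.035, SE 0.259, adjusted p = 0.951). Slc16a1 (MCT1), a carrier of lactate, pyruvate and butyrate that was not among the 38 genes, was more abundant with 79.3 to 161 TPM in Control and 105 to 172 TPM in SiglecXII samples.

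Pyruvate enters the citric acid cycle through pyruvate dehydrogenase. Its E1 subunits Pdha1 and Pdhb were 135 ± 12.6 and 89.2 ± 5.90 TPM in Control samples. Pdha1 was 153 and 137 TPM in SiglecXII 1 and 2 and 102 and 86.6 TPM in SiglecXII 3 and 4, against 122 to 147 TPM in Control samples (log2 difference -0.21, SE 0.176, adjusted p = 0.587). Of the kinases that switch the complex off, Pdk2 held 49.9% ± 2.84 and Pdk1 37.0% ± 3.79 of the TPM of the family in Control samples. Pdk3 held 12.6% ± 1.41, and Pdk4, the form induced by fasting, held 0.580% ± 0.191. Pdk2 was 49.1 to 58.6 TPM in Control and 42.7 to 59.3 TPM in SiglecXII samples (log2 difference -0.086, SE 0.126, adjusted p = 0.743). In each of the 11 isozyme families, and for the subunits Pdha1 and Pdhb, the shares of the groups overlapped.

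To ask whether the lower Gapdh value was shared by the rest of the pathway, the 38 genes were read against all genes of the table. Of the 38, 32 passed the filter of at least 1 TPM in at least 4 samples, and Slc2a2, Slc2a3, Hk3, Pfkfb3, Eno2 and Pdk4 did not. Of the 32, 0 passed the limit of 0.05 on the adjusted p of limma, which 0.038% of all 13164 tested genes passed. At an unadjusted p of 0.05 or less 1 member, Gapdh, was lower in SiglecXII samples, beside 7.67% of all tested genes, and 0 were higher, beside 1.19%. After median centring 1 was lower, beside 2.16%, and 2 were higher (Fbp2 and Pdk1), beside 8.64%; after quantile normalization 1 was lower, beside 3.1%, and 0 were higher, beside 5.35%. Gapdh was likewise the 1 member of the 32 whose SiglecXII samples were all below the Control samples, a pattern found in 4.06% of all tested genes, and 0 were all above, against 1.05%. No member reached a log2 difference of 1 in either direction. The earlier results of these data had already shown the lower Gapdh, so its own p adds nothing to it.

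The differences of the other members were small and followed the table as a whole. The log2 difference was below 0 in 28 of the 32 members (87.5%) and in 78.1% of all tested genes. Its median was -0.12 over the members and -0.15 over all tested genes. After each sample was centred on its median, 6 of the 32 members were below 0 (18.8%, beside 38.5% of all tested genes), and the medians were 0.094 and 0.060. After quantile normalization 14 of the 32 were below 0 (43.8%, beside 46.3%). The direction of the small differences therefore depended on the scaling, whereas Gapdh was lower under each, by -0.72 as deposited, -0.51 after centring and -0.59 after quantile normalization. Without SiglecXII 3 and 4 the median of the members was 0.033 and the difference of Gapdh -0.51.

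**Figure D3:**
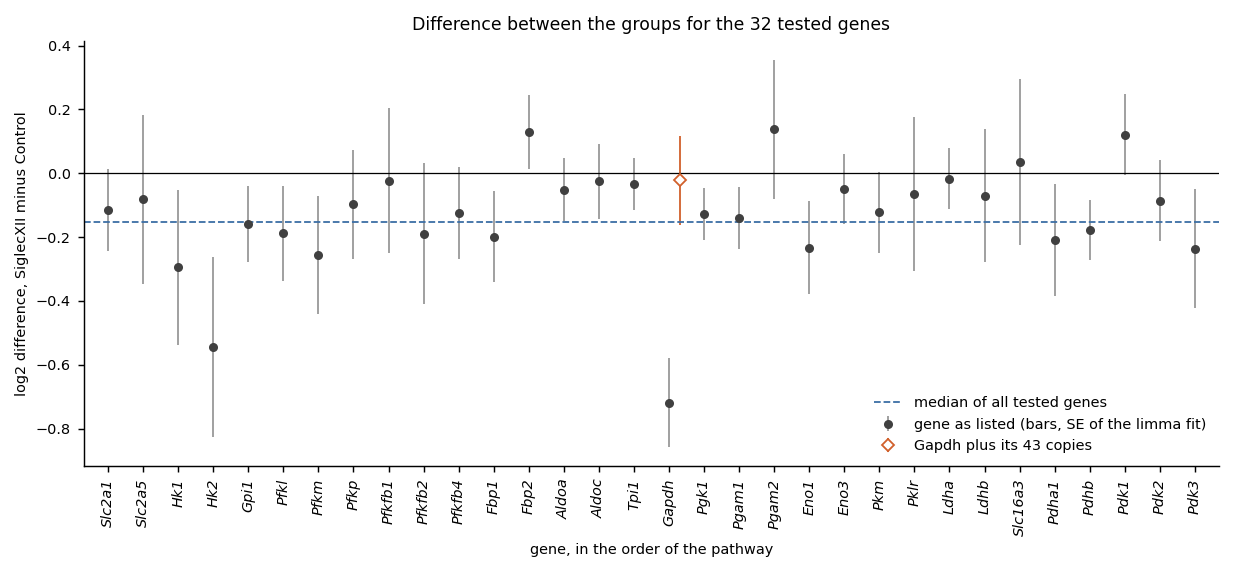
Log2 difference (SiglecXII minus Control) of the 32 tested genes in the order of the pathway, with the standard error of the limma fit as bars; the dashed line is the median of all 13164 tested genes at -0.15, and the open diamond is Gapdh summed with its 43 copies. Gapdh stands at -0.72 and the other members between -0.54 (Hk2) and 0.14 (Pgam2).

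SiglecXII 3 and 4 were low for most members. Of the 32 members, 24 lay below the lowest Control sample in SiglecXII 3 and 20 in SiglecXII 4, but 6 in SiglecXII 1 and 2 in SiglecXII 2. Over all tested genes the same was true of 14.5%, 16.4%, 50.3% and 61.3% in SiglecXII 1 to 4. Of the members it was true of 18.8%, 6.25%, 75.0% and 62.5%. Above the highest Control sample lay 6, 11, 1 and 3 members in SiglecXII 1 to 4. These were 18.8%, 34.4%, 3.1% and 9.4% of the members, beside 21.7%, 11.7%, 7.9% and 8.0% of all tested genes. After median centring the counts of members were 6, 2, 4 and 6 in SiglecXII 1 to 4. As deposited, Gapdh was below the lowest Control sample in all 4 SiglecXII samples. Besides Gapdh, the tested members Hk2, Fbp1, Pgk1 and Pdhb and the untested Slc2a3 and Pfkfb3 had all 4 SiglecXII samples below the Control mean. The share of all genes with this pattern was not counted, while 78.1% of all tested genes were lower on the scale as deposited.

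**Figure D4:**
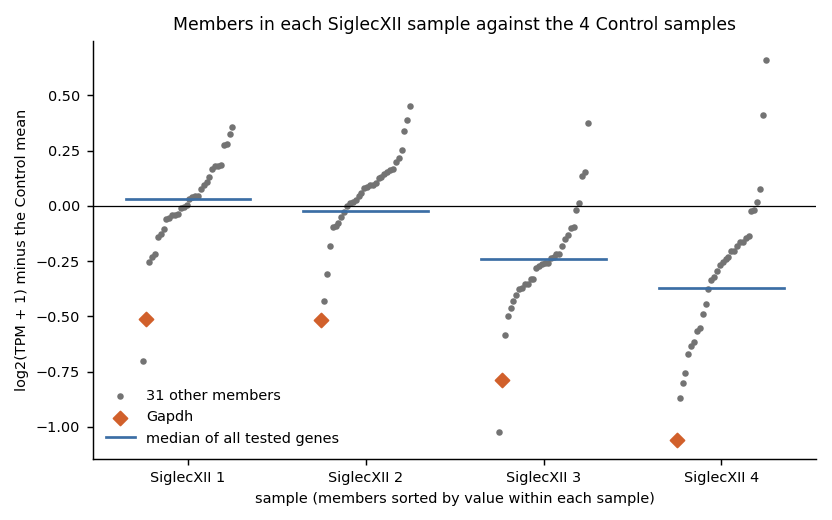
Each point is a tested member in a SiglecXII sample, as its log2(TPM + 1) minus the mean of the 4 Control samples, sorted within the sample; diamonds mark Gapdh and blue lines the median of all tested genes. The members spread around the blue line of their sample, which falls to -0.24 in SiglecXII 3 and -0.37 in SiglecXII 4, and Gapdh lies at or near the lower edge in every sample.

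Gapdh (ENSMUSG00000057666, chr6:125161715-125166467 of GRCm38, minus strand) oxidizes glyceraldehyde 3-phosphate and lies in the pathway between Tpi1 and Pgk1. It was measured at 973, 1083, 1248 and 1106 TPM in Control 1 to 4 and at 769, 768, 636 and 527 TPM in SiglecXII 1 to 4. Every SiglecXII value was below every Control value, with a log2 difference of -0.72 (SE 0.138, adjusted p = 0.515 in limma; the alternatives gave values from 0.0364, with array weights, to 0.990). Tpi1, whose level overlapped between the groups, lies near it at chr6:124810586-124814296. A part of chromosomal position in the Gapdh value was not tested. Pgk1, which acts on its product, was 450, 386, 418 and 424 TPM in Control samples and 408, 397, 360.1 and 369 TPM in SiglecXII samples. These ranges overlapped (log2 difference -0.13, SE 0.082, adjusted p = 0.523).

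Ratios within a sample do not depend on the scaling between samples. The ratio of Gapdh to Tpi1 was 1.61, 1.83, 2.11 and 1.85 in Control samples and 1.29, 1.18, 1.15 and 0.990 in SiglecXII samples. The groups did not overlap, and the two-sided exact permutation test gave p = 0.0286, the smallest that the 70 labelings allow. The ratio of Gapdh to Pgk1 was 2.64 ± 0.353 in Control and 1.75 ± 0.227 in SiglecXII samples (SD, n = 4 each), again without overlap (two-sided exact permutation test, p = 0.0286). Both ratios were chosen with the lower Gapdh value known, so their p-values are no further support for it. The ratios describe the lower Gapdh on a scale free of the shift between samples.

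The mouse genome holds many processed pseudogenes of Gapdh, copies made from its spliced messenger RNA, and short reads of a gene and of such a copy can be exchanged in quantification. By the share of their windows of 31 bases (at least 50% also in Gapdh), 43 rows of the table were copies of Gapdh, of which 19 passed the filter on low values. The copy that differed most between the groups, Gm13394 (ENSMUSG00000083773, chr2:28933610-28934609, minus strand), has 1 substitution against the coding sequence of Gapdh over the 1000 coding bases that it retains. The substitution is A438C, with the base of Gapdh first and the position counted from the 5′ end of its transcript ENSMUST00000073605.14, which is base 346 of the coding sequence, in codon 116 and in exon 4 of 7. The sequences around it are shown because, in the reference, they hold the 1 base of this coding stretch at which Gapdh and Gm13394 differ. Each runs 5′ to 3′ over 61 bases of GENCODE M21 transcripts (GRCm38), with the base that differs in capitals. That of Gapdh is read across an exon junction within chr6:125162986-125163144 and that of Gm13394 from chr2:28934234-28934294, both on the minus strand.
Gapdh: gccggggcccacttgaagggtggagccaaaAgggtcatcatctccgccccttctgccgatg
Gm13394: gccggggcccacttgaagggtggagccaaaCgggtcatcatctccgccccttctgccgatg

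The C was found in 1 of the 43 copies, Gm13394 itself, and 29 copies have these 61 bases exactly as Gapdh does. Of the 970 windows of 31 bases in Gm13394, 31 are absent from Gapdh. Gm13394 was measured at 0.77, 0.62, 0.82 and 1.30 TPM in Control samples and at 397, 405, 335 and 265 TPM in SiglecXII samples. Its value was higher in SiglecXII samples by 7.54 on the log2 scale (SE 0.167, adjusted p = 8.0e-08 from limma). Every SiglecXII value was above every Control value. Which base Gapdh itself carries at A438C in these mice was not examined. The higher value is therefore not shown to be transcription from Gm13394. Gm7336 (ENSMUSG00000078636, chr7:51746647-51747878, plus strand), which is identical to Gapdh over all 1002 coding bases, was 48.4, 58.5, 51.9 and 40.4 TPM in Control samples and 159, 174, 138 and 117 TPM in SiglecXII samples. Its value was also higher, by 1.54 (SE 0.152, adjusted p = 0.0104 from limma), although this call was lost in 5 of 16 alternatives. Reads over a stretch in which a copy and Gapdh are identical cannot be assigned to either with certainty, so the level of each row alone is uncertain.

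None of the other 41 copies passed the adjusted limit, where the smallest adjusted p was 0.515 from limma. Of the 41, 34 had a lower and 5 a higher mean in SiglecXII samples and 2 were at 0 in all samples. On this scale, as deposited, 78.1% of all tested genes were lower too, and 21467 of 31352 genes with no filter. Most of the 41 copies did not pass the filter, so the 34 are not directly comparable with the share of tested genes. Among the 17 that were tested, 6 were lower at unadjusted p and 0 higher, beside 7.67% and 1.19% of all tested genes. The 6 include Gm2574 and Gm5138, whose values were the same in every sample, so these rows are not separate measurements. All copies share sequence with Gapdh, so their values need not be independent. The count therefore cannot show whether the copies were lower more often than other genes. The highest of the 41 were Gm2574 and Gm5138, with the same values of 9.58, 13.8, 13.8 and 14.3 TPM in Control samples and 9.31, 12.1, 8.68 and 7.17 TPM in SiglecXII samples, and Gm12286 with 12.03 ± 1.12 and 10.8 ± 2.59 TPM (SD, n = 4 each). Their summed level was 81.3, 93.8, 111 and 101 TPM in Control samples and 76.1, 80.1, 67.9 and 53.5 TPM in SiglecXII samples, where every SiglecXII value was below every Control value. Apart from Gm13394, 6 copies differ from the coding sequence by 1 substitution, and they summed to 12.3 ± 2.69 TPM in Control and 5.72 ± 1.22 TPM in SiglecXII samples. Only Gm13394 and Gm7336 of the 43 thus passed the test in the direction opposite to Gapdh.

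Summed over Gapdh and its 43 copies, the level was 1103, 1236, 1411 and 1249 TPM in Control samples and 1401, 1427, 1176 and 963 TPM in SiglecXII samples. The groups overlapped, with the highest and the lowest value both among SiglecXII samples. The log2 difference of the sum was -0.022 (SE 0.139, adjusted p = 0.944 from limma, and two-sided exact permutation test, p = 0.857). The copies held 11.8% of the sum in Control and 45.6% in SiglecXII samples. With the copies added, the ratio to Tpi1 was 2.10 ± 0.233 in Control and 2.12 ± 0.226 in SiglecXII samples (two-sided exact permutation test, p = 0.886), while that to Pgk1 was 2.99 ± 0.401 and 3.23 ± 0.431 (p = 0.457, SD, n = 4 each). The direction of the small difference of the sum turned with the scaling, to 0.19 after median centring and 0.075 after quantile normalization.

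**Figure D5:**
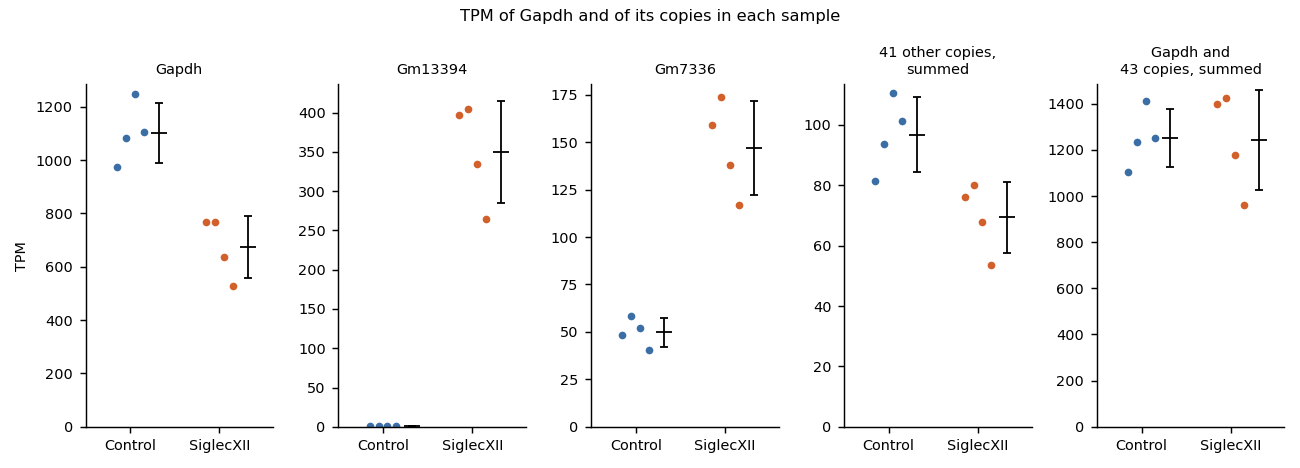
TPM of Gapdh, of Gm13394, of Gm7336, of the 41 other copies summed and of Gapdh summed with all 43 copies, each panel with its own axis from 0; points are samples (blue, Control; orange, SiglecXII) and bars are the mean ± SD of 4 samples. Gapdh and the 41 other copies are lower in SiglecXII samples, Gm13394 and Gm7336 are higher, and the full sum is 1250 ± 126 TPM in Control and 1242 ± 217 TPM in SiglecXII samples.

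Copies were also found for 8 other members, namely Gpi1, Tpi1, Pgk1, Pgam1, Eno1, Pkm, Ldhb and Pdhb, with 1 or 2 copies each. Only those of Pgk1 took up a visible part of the sum. Gm5537 and Pgk1-rs7, in which all windows also occur in Pgk1, held 5.97% of the sum in Control and 8.50% in SiglecXII samples, and with them the log2 difference of Pgk1 was -0.089 in place of -0.13 (SE 0.086, adjusted p = 0.626). Every SiglecXII value of Pgk1-rs7 (4.81 to 9.04 TPM) was above every Control value (1.34 to 4.48 TPM). This pattern was found in 1.05% of all tested genes. The log2 difference of Pgk1-rs7 was 0.79 (adjusted p = 0.515 from limma). Gm5537 overlapped between the groups (log2 difference 0.39, adjusted p = 0.587 from limma). For the other 7 members the copies held at most 0.111% of the sum in either group. Of the members with copies by this rule, none other had a part of the sum comparable to that of Gapdh in either group. Aldoa and Ldha had no copy by the rule. Of the windows of their listed transcripts, 35.0% and 48.8% also occur in other genes, and such rows were not summed.

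The genes around the pathway were examined in the same fit. Of 47 further genes of glucose and lactate transport, gluconeogenesis, pyruvate metabolism and their regulation, 46 were in the table and 34 were tested. None passed the adjusted limit, and at unadjusted p 3 were lower and 0 higher, against 7.67% and 1.19% of all tested genes. After median centring 2 were lower and 6 higher, against 2.16% and 8.64%, and after quantile normalization 3 were lower and 5 higher, against 3.1% and 5.35%. The 3 lower on the deposited scale were Myc, a transcription factor that drives many glycolytic genes (18.1 to 31.5 TPM in Control and 8.49 to 16.1 TPM in SiglecXII samples, log2 difference -0.98), Pck1, the rate-limiting enzyme of gluconeogenesis (74.7 to 93.2 and 56.1 to 79.0 TPM, -0.48, not lower at this limit after centring), and Mlxipl, which encodes the glucose-responsive factor ChREBP (3.10 to 5.16 and 1.76 to 3.52 TPM, -0.58), each with adjusted p = 0.515 from limma. The median log2 difference of the 34 genes was -0.15, as over all tested genes. Of 16 hypoxia-inducible genes outside glycolysis, all tested, 1 was lower at unadjusted p. This was Car12, a membrane carbonic anhydrase, with 2.53 to 8.53 TPM in Control and 1.53 to 3.07 TPM in SiglecXII samples (log2 difference -0.90, adjusted p = 0.515). The median of these 16 genes was -0.19. Bsg, the chaperone that carries the lactate transporters to the membrane, was 829 to 915 TPM in Control and 756 to 887 TPM in SiglecXII samples.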

How the data were processed

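Distal colon RNA of 4 Control and 4 SiglecXII samples was used. The authors deposited log2(TPM + 1) for each gene and sample. The submitters' processing notes name kallisto 0.45.0 and GRCm38, whereas the paper's methods name other settings; no count was used. TPM carries no depth, so counting error is unknown and precision rests on the number of samples. Groups follow the labels, which give no batch.

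Genes at or above 1 TPM in 4 or more samples were fitted on the log2 scale by limma (version 3.58.1, R version 4.3.3, functions lmFit and eBayes, trend on), with Benjamini-Hochberg adjustment over all 13164 genes, with a limit of 0.05. The pseudocount of 1 understates differences of low genes. On simulated data of this size, 67% of changes of log2 1 and 88% of log2 2 were recovered, with 7 false calls among 162. The simulation changed 100 genes by each amount with independent noise, whereas 5 genes were called in the data. Recovery of single changes in the data can therefore be lower. Ratios and sums were compared by exact permutation over 70 labelings (Python 3.11.15, scipy 1.17.1). Copies of a member are rows whose transcripts in GENCODE M21 (GRCm38) share at least 50% of their 31-base windows with it. Shares were computed within a sample and not tested.

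The 38 members, the other lists and the tests were chosen with earlier results of these data known. Named with values were Gapdh, Gm13394, Gm7336 and the 3 highest other copies, the highest member at each step, members past unadjusted p or not overlapping, both ends of the range of differences, every isozyme by its share and, of other lists, genes past unadjusted p. Eno3, Pdhb, Slc16a1 and Bsg were named for their place in the pathway after their values were seen. Same-numbered samples were not treated as pairs. Alternatives were other filters, a pseudocount of 0.1, median centring, quantile normalization, array weights, variance without moderation, a replicate block and each sample left out. Leaving out SiglecXII 3 and 4 together was chosen after seeing the data. Among the remaining marker lists, adipocytes (5), neurons (6) and glia (4) summed to 6.20 to 50.7, 7.45 to 14.3 and 1.91 to 2.83 TPM in Control and 7.64 to 29.9, 6.29 to 6.61 and 1.41 to 2.06 TPM in SiglecXII samples.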

Additional observations from a re-analysis of the deposited data

Results flagged for a closer look

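A sample far from the other 3 of its group, by Dixon's ratio of gap to range, was found in 2 of 82 groups of 4 samples examined, where chance gives 1 in 20, or 4.1 groups. Pfkfb1, a bifunctional regulator of glycolysis, was 1.07 TPM in Control 1 and 2.35 to 2.44 TPM in the other Control samples, a ratio of 0.946. Pdk1, a kinase that inhibits pyruvate dehydrogenase, was 47.7 TPM in Control 4 and 37.3 to 38.3 TPM in the other Control samples, a ratio of 0.894.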

How the results depend on the processing

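The counts of members past the adjusted limit were 0 in 16 of 17 alternatives and 1 with array weights, where Gapdh passed (log2 difference -0.57, adjusted p = 0.0364 from limma). At unadjusted p the count of 1 became 2 with no filter on low values, 3 after median centring (Gapdh, Fbp2 and Pdk1) and 3 with array weights, and ranged from 1 to 3 with a sample left out, 2 without Control 1 and 3 without SiglecXII 2. The 3 other genes of the pathway, all lower, became 8 after median centring (6 higher, 2 lower, Pck1 not among them) and 8 after quantile normalization (5 higher, 3 lower). They became 6 with array weights (2 higher, 4 lower) and 3 to 6 with a sample left out. The 6 without Control 1 or SiglecXII 1 were 1 higher and 5 lower in each. Over all tested genes, 432 were higher and 1419 lower of 13164 with array weights. These counts were 119 and 997 of 12996 without Control 1 and 177 and 2181 of 13037 without SiglecXII 1. They were 148 and 1391 of 12993 without SiglecXII 2 and 366 and 1677 of 31352 with no filter. The 1 hypoxia-inducible gene became 2 with no filter, 0 at a TPM of at least 5, 2 where the variance was not moderated, 3 with array weights and 0 without both SiglecXII 3 and 4 (1 to 3 with a sample left out). The median difference of the members, -0.12, was 0.094 after median centring, 0.035 with array weights and 0.033 without both SiglecXII 3 and 4. Gapdh kept its direction throughout, from -0.79 to -0.51. Gapdh plus its copies turned to 0.19 after median centring, 0.075 after quantile normalization, 0.13 with array weights and 0.18 without both SiglecXII 3 and 4, and ranged from -0.094 to 0.095 with a sample left out. Gm7336 lost its call with no filter, with variance not moderated and without SiglecXII 1, 2 or 3 in turn.

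Of 18 other named members, 16 changed direction under some alternative and 0 passed the limit. After median centring the log2 differences were 0.097 for Slc2a1, 0.054 for Gpi1, 0.025 for Pfkl, 0.089 for Pfkfb4, 0.16 for Aldoa, 0.18 for Tpi1, 0.084 for Pgk1, 0.073 for Pgam1, 0.091 for Pkm, 0.20 for Ldha, 0.0034 for Pdha1 and 0.13 for Pdk2. After quantile normalization they were 0.079 for Pfkfb4, 0.065 for Aldoa, 0.042 for Tpi1, 0.072 for Ldha and 0.031 for Pdk2. With array weights they were 0.0012 for Hk1, 0.040 for Pfkl, 0.074 for Pfkfb4, 0.095 for Aldoa, 0.096 for Tpi1, 0.042 for Pgam1, 0.033 for Eno1, 0.078 for Pkm, 0.11 for Ldha and 0.037 for Pdk2. With a sample left out, Aldoa ranged from -0.11 to 0.021, Tpi1 from -0.087 to 0.0087, Pgam2 from -0.043 to 0.26, Ldha from -0.077 to 0.038 and Slc16a3 from -0.10 to 0.28. The direction held in the other named members, among them Hk1 (-0.45 to -0.10), Pdha1 (-0.34 to -0.068), Gpi1 (-0.23 to -0.064) and Fbp2 (0.029 to 0.18). The causes were not tested. Median centring adds the same amount to every gene's difference. Leading isozyme shares moved by less than their SD under every alternative run.

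The labels tie same-numbered samples by nothing but the number. The correlations of their deviations from the group means were -0.165, -0.204, 0.103 and -0.0025 for numbers 1 to 4. These values cannot show whether such samples shared a litter, cage or preparation. With the replicate number as a block, the counts of members past the adjusted and the unadjusted limit were 0 and 1, that of hypoxia-inducible genes was 2, and the difference of Gapdh was -0.72 with adjusted p = 0.629 from limma.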
